A study of Mus musculus with 12 samples.

Results

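C1q macrophages with Mrc1 are the tumour cells of this single-cell RNA-seq series whose own RNA carried both complement C1q and the mannose receptor. A cell was counted among them when its RNA held at least 3 unique molecular identifiers (UMIs, each standing for 1 captured RNA molecule) of C1qa, C1qb and C1qc together, at least 2 of Mrc1 and none of Cd3e, Cd3d or Cd3g. Of 176381 barcodes, 163866 had at least 300 genes and at most 15% mitochondrial UMIs. Of these, 116375 were assigned to 1 tumour or day 0 sample by a top hashtag of at least 20 counts and at least 3 times the second. The gate kept 3643 cells, which were 3.13% of the assigned cells and 24.93% of the 14611 cells with at least 3 C1q UMIs and no Cd3 UMI, called C1q+ cells here. Because these cells were selected on C1qa, C1qb, C1qc, Mrc1 and the Cd3 genes, the levels of those genes describe the gate and support nothing. C1qa, C1qb, C1qc and Mrc1 stayed in the counts of genes tested for KO against control, where none of the 4 passed, and for days, where C1qa passed between days 6 and 16.

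The mouse tumours came from SCC35 lines, with Mif KO lines 19 and 24 and their Mif KO control lines 15 and 18, sampled at days 6, 10 and 16. Samples of these lines at day 0 are also in the hashtag sheet and entered no tumour comparison. The gene knocked out, Mif, codes for a secreted cytokine named macrophage migration inhibitory factor. All tumours were dissociated, hashed with antibody barcodes and sorted for live cells before 10x 5′ sequencing in 6 libraries. Of these, 4 libraries hold 1 line each, and the other 2 mix lines of both groups, 1 of them with 3 tumours named WT in the hashtag sheet. The sample labels give WT no group, so those tumours entered no group comparison. The labels do not state the mouse strain, age, host genotype, injection site or how each line was cloned. Each group rests on 2 lines, and in the single-line libraries line and library cannot be told apart. Nothing in the labels says whether tumours with different letters came from separate mice, so p-values measure the spread between these samples.

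C1q is the recognition unit of the classical complement pathway, and in tissues its main source is the macrophage. Mrc1 (CD206) is an endocytic receptor for mannosylated glycans and collagen fragments, used widely as a marker of resident and alternatively activated macrophages. Macrophages also take up antigen and show its peptides to CD4 T cells on MHC class II, whose invariant chain Cd74 is also a cell-surface receptor for Mif.

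The class II genes carry a shared proximal promoter module. They are among the genes compared between KO and control tumours below, and 3 of their promoters are shown first. Each is the 250 bases before the gene's start from RefSeq on GRCm38.p6, printed 5′ to 3′ on the gene's strand, with the Y box core TGATTGG in capitals.
H2-Aa, chr17:34287824-34288073, minus strand: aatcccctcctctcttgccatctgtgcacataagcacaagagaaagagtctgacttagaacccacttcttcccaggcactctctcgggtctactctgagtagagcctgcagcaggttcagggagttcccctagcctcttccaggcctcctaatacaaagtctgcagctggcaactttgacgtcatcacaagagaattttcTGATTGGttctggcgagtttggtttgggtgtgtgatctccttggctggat
H2-Eb1, chr17:34305617-34305866, plus strand: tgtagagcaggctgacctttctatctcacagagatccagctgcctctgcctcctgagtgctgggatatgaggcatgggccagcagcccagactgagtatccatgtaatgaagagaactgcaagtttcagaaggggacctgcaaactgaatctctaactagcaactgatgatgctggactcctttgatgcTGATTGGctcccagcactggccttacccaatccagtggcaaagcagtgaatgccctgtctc
H2-DMb1, chr17:34152941-34153190, plus strand: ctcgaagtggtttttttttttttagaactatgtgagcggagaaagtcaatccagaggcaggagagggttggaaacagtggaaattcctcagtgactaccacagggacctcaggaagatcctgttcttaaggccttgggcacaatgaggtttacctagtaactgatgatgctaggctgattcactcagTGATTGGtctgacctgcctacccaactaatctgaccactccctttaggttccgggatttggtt
The letters TGATTGG were chosen after the sequences were seen and were searched on both strands, with CCAATCA as the reverse complement. They began 50 bases upstream of the start in H2-Aa, 61 in H2-Eb1 and 63 in H2-DMb1. Of the 8 class II genes on the list, 5 matched the promoter table (H2-Aa, H2-Eb1, H2-DMa, H2-DMb1 and Ctss) and 3 held the letters. Of all 32851 promoters of the same length, 2375 (7.23%) held them. A match describes the letters and not a bound site.

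The label held up against macrophage markers. Summed over all gated cells, Csf1r, the receptor for the macrophage growth factor CSF1, stood at 267.9 CPM (UMIs of a gene scaled to a common total), against 13.4 CPM in the cells that were not C1q+. Adgre1 (F4/80) stood at 196.5 against 2.46 CPM, Cd68 at 702.2 against 30.2 CPM and Lyz2, lysozyme, at 3363 against 117 CPM. The levels of the gate genes follow from the gate and are no support for the label. C1qa stood at 2636 CPM, C1qb at 3307, C1qc at 2459 and Mrc1 at 651.9. In the cells that were not C1q+ these genes stood at 12.04, 17.1, 11.7 and 5.29 CPM. Folr2, the folate receptor of resident and perivascular macrophages, was present at 100.3 CPM. Other markers often used for resident macrophages were near 0: Lyve1 at 1.99 CPM, Cd163 at 1.47 and Timd4 at 0.237.

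Several markers of other cells were at or near 0 in the pooled gated cells, with Cd79a of B cells at 0.522 CPM, Flt3 of dendritic cells at 0.474, Krt5 of keratinocytes at 0.285 and S100a8 of neutrophils at 4.41. Other members of those lists were present. Among B-cell markers, Ighm stood at 19.3 CPM and Cd79b at 14.2, against 3.31 and 0.602 CPM in the cells that were not C1q+, and the neutrophil marker Csf3r stood at 9.63 against 1.17 CPM. The dendritic markers Fscn1 and Ccr7 stood at 37.3 and 5.60 CPM, against 100.2 and 20.3 CPM. Summed, the 6 B-cell markers came to 34.7 CPM against 9.44, the 8 neutrophil markers to 17.4 against 21.2 and the 8 dendritic markers to 46.7 against 130.1. The 6 NK-cell markers came to 11.4 CPM against 31.7, with the natural cytotoxicity receptor gene Ncr1 at 0.0949, Gzma at 4.27 against 22.0 and Prf1 at 5.12 against 3.76. Fibroblast RNA was present: Col1a1 stood at 146.5 CPM, against 426.8 CPM in the cells that were not C1q+. The summed level of 7 fibroblast markers ran from 16.9 to 694 CPM over control tumours and from 140 to 1087 CPM over KO tumours. Each of the 7 had UMIs in each group when its tumours were pooled. That of 9 genes of the tumours' non-immune line compartment ran from 26.9 to 184 CPM over control tumours and from 65.9 to 539 CPM over KO tumours.

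The threshold of 2 Mrc1 UMIs cut through a continuous range. The 1470 gated cells with exactly 2 Mrc1 UMIs had a median of 36 C1q UMIs and 3685 UMIs in all, and the 3040 C1q+ cells with exactly 1, just outside, had 25 and 3474.5. At the C1q threshold, 54 gated cells had exactly 3 C1q UMIs, and 72 cells with 2 or more Mrc1 UMIs had exactly 2. A further 107 cells met both thresholds but carried a Cd3 UMI. Gated cells had a median of 4203 UMIs and 1699 genes, and C1q+ cells with no Mrc1 UMI had 2944.5 UMIs, so deeper cells passed more often. By library, the median depth of gated cells ran from 3467 UMIs in the line 24 library to 5787 in the line 15 library. Libraries shared 15834 barcodes, 7201 of them assigned and 5 gated in more than 1 library.

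In the cells that were not C1q+, Mif stood at 2177 ± 389 CPM (SD, n = 21 samples, day 0 included) in control and 407 ± 374 CPM (SD, n = 21) in KO samples. At day 0 it was 2875 ± 176 CPM (SD, n = 3) and 134 ± 105 CPM (SD, n = 4). No KO sample reached the level of any control sample, with the highest KO sample at 1229 CPM and the lowest control sample at 1638 CPM. The WT tumours stood at 2317 ± 190 CPM (SD, n = 3).

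C1q macrophages with Mrc1 made up a growing share of control tumours from day 6 to day 16. None of 5769 assigned day 0 cells passed the gate, which allows a share of up to 0.052% (counting error only), and 17 were C1q+. The day 0 samples are not a tumour time point here, so this 0 says nothing of entry into tumours. In control tumours the share of gated cells among assigned cells averaged 1.74% at day 6, 4.99% at day 10 and 8.10% at day 16 (6 tumours a day). In KO tumours it averaged 0.744% (5 tumours), 2.48% (6) and 1.39% (6). Over all 3 days the share was 4.95% ± 3.45 (SD, n = 18) in control and 1.58% ± 1.11 (SD, n = 17) in KO tumours, a difference of -3.36 percentage points (two-sided permutation test within day, 100000 resamples, p = 2e-05). With 1 mean per line the difference was -3.37 points, and the exact permutation p of 0.333 is the smallest that 2 lines against 2 allow. Over the 5 blocks in which tumours of both groups shared a mixed library and day (6 control and 5 KO tumours), the mean difference within a block was -3.33 points, below 0 in 4 of 5 blocks, and the exact permutation p within blocks was 0.0625.

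C1q+ cells of any Mrc1 level were also a smaller share of KO tumours, a difference that was not tested. They were 14.1%, 15.9% and 20.5% of assigned cells in control tumours at days 6, 10 and 16, and 7.94%, 10.0% and 10.4% in KO tumours. Within C1q+ cells, the share that also passed the Mrc1 threshold was followed tumour by tumour. In control tumours its lowest, median and highest values were 8.33%, 12.5% and 18.9% at day 6, 11.6%, 31.3% and 40.6% at day 10, and 23.2%, 40.7% and 49.2% at day 16. In KO tumours they were 4.08%, 8.70% and 15.1% at day 6, 12.4%, 31.6% and 43.8% at day 10, and 5.08%, 14.6% and 34.4% at day 16. At days 6 and 10 the groups overlapped over most of their range. At day 16, 5 of 6 KO tumours lay below the lowest control tumour, and the tumour at 34.4% belonged to line 19.

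**Figure D1:**
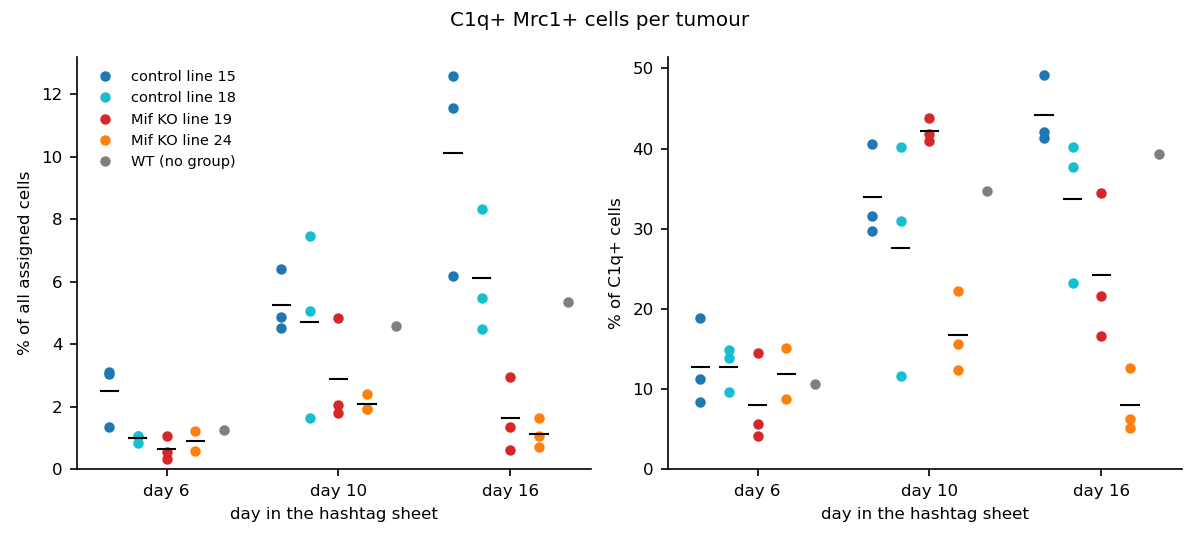
Share of C1q macrophages with Mrc1 in each tumour, as a percentage of all assigned cells (left) and of C1q+ cells (right), by day in the hashtag sheet. Each point is 1 tumour, colours are lines, and bars are line means; control shares of C1q+ cells climb to between 23.2% and 49.2% at day 16, while KO shares at day 16 lie between 5.08% and 34.4%.

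Between days 6 and 16 the share of C1q+ cells with Mrc1 rose by 26.1 percentage points in control tumours (exact permutation p = 0.00216, 0.013 adjusted over the 6 day comparisons, n = 6 and 6). In KO tumours the change was 6.51 points (exact permutation p = 0.271, adjusted 0.271, n = 5 and 6). The 2 changes differed by -19.6 points (exact permutation of group labels within day, p = 0.0297, 1 of 3 such differences, not adjusted over them). These permutations took tumours as units, although each group has 2 lines, and no version by line was run. From day 6 to 16 the line means went from 12.8% to 44.2% (line 15) and 12.8% to 33.7% (line 18) in control. In KO they went from 8.06% to 24.2% (line 19) and 11.9% to 7.97% (line 24). For thinned shares, cells with fewer than 3000 or 1500 UMIs were left out and the rest were thinned to that depth before the gate. The thinned shares therefore cover a deeper set of cells than the shares above. With 3000 and 1500 UMIs the control change was 18.7 points (exact p = 0.00216, adjusted 0.013) and 7.79 points (exact p = 0.00649, adjusted 0.0389). The KO change was -0.76 points (exact p = 0.846) and 1.24 points (exact p = 0.699). From day 6 to day 10 the share rose by 18.0 points in control (exact p = 0.00866, adjusted 0.026) and by 19.9 points in KO tumours (exact p = 0.0238, adjusted 0.0476). The KO call was lost on thinning, at 10.4 points with 3000 UMIs (exact p = 0.0866, adjusted 0.13) and 6.28 points with 1500 (exact p = 0.0974, adjusted 0.195). The control call held with 3000 UMIs (13.2 points, exact p = 0.00866, adjusted 0.026) and was lost with 1500 (6.59 points, exact p = 0.0411, adjusted 0.123). Those changes differed by 1.86 points (exact p = 0.807). From day 10 to 16 the control share changed by 8.15 points (exact p = 0.162) and the KO share by -13.4 points (exact p = 0.0952), and those changes differed by -21.5 points (exact p = 0.0528). With each cell thinned to 3000 UMIs the day 6 to 16 changes differed by -19.5 points (exact p = 0.00253), and with 1500 UMIs by -6.55 points (exact p = 0.16).

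The lines did not behave alike. Line means of that share at days 6, 10 and 16 were 12.8%, 34.0% and 44.2% in control line 15 and 12.8%, 27.6% and 33.7% in control line 18. In KO line 19 they were 8.06%, 42.2% and 24.2%, with the highest day 10 mean of all lines. KO line 24 stood at 11.9%, 16.7% and 7.97%. Over all days the share was 27.5% ± 13.6 (SD, n = 18) in control and 18.9% ± 13.4 (SD, n = 17) in KO tumours, a difference of -8.59 points (permutation p = 0.0293). The p-value was past 0.05 without line 24 (-2.67 points, permutation p = 0.485), without line 15 (-5.78 points, p = 0.221), in the mixed libraries alone (-10.6 points, permutation p = 0.102), within blocks of mixed library and day (-6.36 points, exact p = 0.312) and after thinning to 3000 UMIs (-4.10 points, p = 0.165). The WT tumours, 1 per day, stood at 10.6%, 34.7% and 39.3%.

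Compared with C1q+ cells of the same tumour that had no Mrc1 UMI, the gated cells carried more RNA of resident-type macrophage genes and of most chemokines listed, and less MHC class II, monocyte and osteoclast-like RNA. The gate itself draws this contrast, so the values describe the cells and are not evidence for them. Over 30 tumours with at least 20 cells of each class, 21.8% of the 10053 genes in the fit had an edgeR adjusted p under 0.05 (10.6% higher and 11.2% lower in the gated cells). CPM in this comparison is scaled over both classes and is given as the median over tumours.

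Of 18 resident and perivascular macrophage genes, 12 could be tested and all 12 were higher, with a median log2 difference of 1.88 against -0.03 over all genes. Gas6, a ligand that bridges dying cells to TAM receptors, stood at 52.3 CPM in the gated cells and 6.29 CPM in the cells without Mrc1 (log2 difference 2.64, higher in 29 of 30 tumours). Fcrls, an Fc receptor-like scavenger receptor, stood at 181 against 32.4 CPM (2.33, 30 of 30). The scavenger receptor Stab1 stood at 161 against 38.7 CPM (2.12, 30 of 30). Pf4, the chemokine CXCL4, stood at 1344 against 307 CPM (1.93, 30 of 30), and Folr2 at 81.9 against 20.8 CPM (1.97, 28 of 30). No tumour showed the reverse order for Fcrls, Stab1 or Pf4. The monocyte-attracting chemokines Ccl7 (891 against 277 CPM), Ccl12 (596 against 193 CPM) and Ccl8 (425 against 121 CPM) followed. Of 11 chemokines tested 8 were higher and 2, Ccl5 and Cxcl14, were lower.

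The list of alternative activation genes had 7 of 12 tested members higher and none lower. Msr1, a scavenger receptor for modified lipoproteins, stood at 173 against 85.6 CPM and was higher in 30 of 30 tumours. The lectin Clec10a had a log2 difference of 1.15 and arginase, Arg1, of 1.10, with medians of 15.0 and 21.1 CPM in the gated cells. The lipid-associated list was split, with 6 of 12 higher, among them Apoe (0.96) and Trem2 (0.92), and 5 lower. Macrophage core genes were all higher (12 of 12, median 0.49).

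MHC class II ran the other way. H2-Eb1, the beta chain of I-E, stood at 813 CPM in the gated cells and 1307 CPM in the cells without Mrc1 (log2 difference -0.92, lower in 27 of 30 tumours). Its difference in log2(CPM + 1) ran from -0.669 to 0.093 in tumours of line 24 and from -2.53 to -0.499 in line 18. H2-Aa, the alpha chain of I-A, stood at 1056 against 1650 CPM (-0.87, 27 of 30), and Cd74 at 3446 against 4867 CPM (-0.71, 25 of 30). Ciita, the transactivator of class II genes, had a log2 difference of -1.02. In all, 6 of 8 class II genes were lower and Ctss, a lysosomal protease that trims the invariant chain, was higher. Per cell the same order showed in raw UMIs of H2-Aa, H2-Ab1 and H2-Eb1 together: the median was 12 with no Mrc1 UMI, 6 with 1, 3 with 2 and 1 with 3 or more. Some markers of other cells were also lower in the gated cells: the dendritic genes Ccr7 (-0.99, edgeR adjusted p = 0.0348) and Fscn1 (-0.41, edgeR adjusted p = 0.000383) and Gzma of NK cells. So were 3 of 6 fibroblast, 3 of 8 line-compartment and 2 of 2 keratinocyte genes tested, and no gene of the lists named so far was higher. Of 3 T-cell genes tested Cd4 was higher and none lower. None of 2 B-cell, 3 neutrophil, 4 endothelial and 1 melanocytic genes tested passed, too few to set against 21.8% over all genes. The other members of those lists were not tested. Summed over the pooled cells, the 8 dendritic markers came to 46.7 CPM in gated cells and 71.8 CPM in those without Mrc1. The part of such RNA in the class II difference was not tested.

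The inflammatory monocyte genes Ly6c2 (21.9 against 86.3 CPM, log2 difference -1.54) and Plac8 (-1.32) were lower, with 6 of 8 monocyte genes lower and none higher. The 7 osteoclast-like genes were all lower, with a median of -1.22, with Dcstamp, a protein of osteoclast fusion, at -1.88, Ocstamp at -1.72, the collagen-degrading protease Ctsk at -1.69 and the acid phosphatase Acp5 at -1.17. Lines differed in Acp5: its difference in log2(CPM + 1) ran from 0.455 to 0.747 in tumours of line 24 and from -2.835 to -0.019 in line 18. Gated cells were deeper than the cells they were set beside. With cells under 3000 UMIs left out and both classes thinned to 3000 UMIs before summing (19 tumours), 1974 genes passed. In those thinned sums Gas6 differed by 2.54, Pf4 by 1.93 and H2-Eb1 by -0.98. Of the osteoclast-like genes, Ctsk differed by -1.33 and Nfatc1 by -0.76, Acp5 moved to -0.57 (edgeR adjusted p = 0.00755), and Mmp9 (-0.39, edgeR adjusted p = 0.257) and Atp6v0d2 (-0.55, edgeR adjusted p = 0.0908) no longer passed. Dcstamp and Ocstamp did not pass the filter on low counts there.

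**Figure D2:**
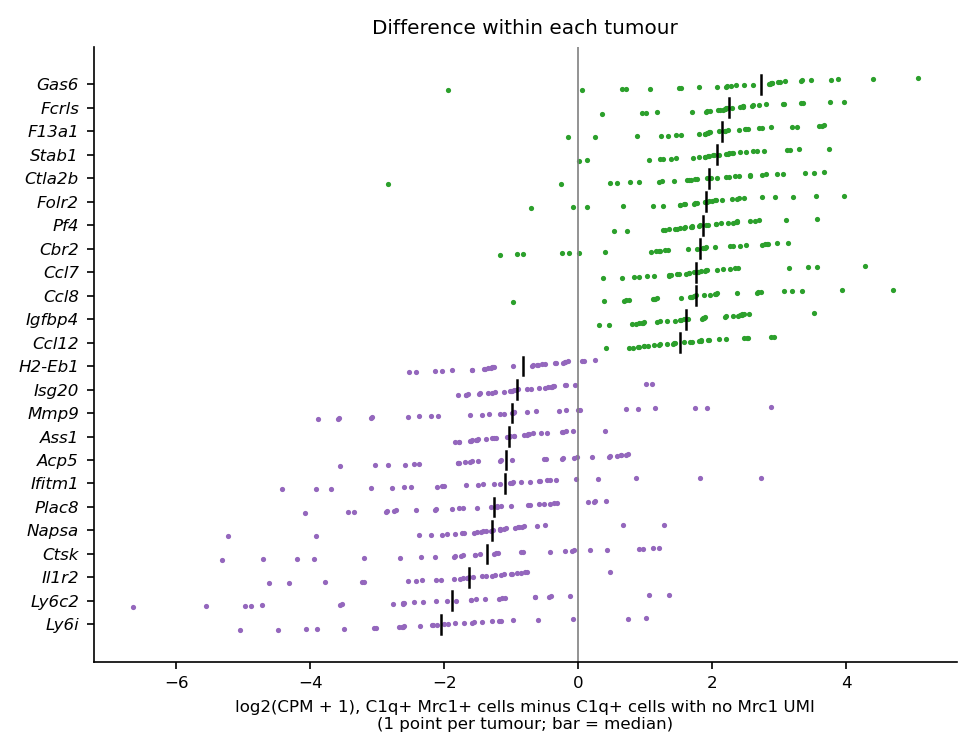
Difference in log2(CPM + 1) between C1q macrophages with Mrc1 and C1q+ cells with no Mrc1 UMI of the same tumour. Each point is 1 of 30 tumours and the bar is the median; resident-type genes such as Gas6, Fcrls and Stab1 lie to the right of 0 and class II genes such as H2-Eb1 to the left.

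Across tumours, the genes whose level followed that of Mrc1 most closely in all C1q+ cells are given by a ranking alone. Over 38 tumours and 9811 genes, Pearson's r of log2 CPM with Mrc1 was 0.897 for Stab1, 0.882 for Dab2, 0.88 for Slc9a9, 0.88 for Pf4 and 0.879 for Ap1b1. Next came Cd93 (0.856), Fcrls (0.835), Trem2 (0.828), Snx2 (0.804) and Clta (0.803). These values are a description: tumours share libraries and depths.

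Between KO and control tumours, RNA summed over the gated cells differed in MHC class II, which was higher in KO. Part of the Fc and immune-inhibitory receptor and resident-type lists was lower in KO, as were Ctsb and Cd68. The class II rise was uneven between the KO lines. No class II gene passed in the mixed libraries alone, within blocks of library and day, with library as a term or without 1 of the KO lines. The part of RNA from other cells in the class II difference was not tested. The comparison used raw counts summed per tumour over gated cells, for 16 control and 11 KO tumours with at least 20 such cells (3197 cells, 22 to 390 per tumour, 59182 to 2798194 UMIs), with day as a covariate. Of the 6231 genes in the fit, 13.1% had an edgeR adjusted p under 0.05 (quasi-likelihood test, Benjamini-Hochberg over all genes tested), 7.25% higher and 5.86% lower in KO. Only 1 of the 11 KO tumours was from day 6. With tumours of both groups paired as blocks of mixed library and day (5 control and 4 KO tumours), 171 genes passed, 56 higher and 115 lower, and 19 of the 55 genes named by rule for this comparison passed. CPM below is TMM-scaled, and each value is a level per tumour.

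H2-Aa had lowest, median and highest levels of 146.7, 587.1 and 2452 CPM in control tumours and 306.4, 2412 and 5942 CPM in KO tumours. The ranges overlapped, with 5 of 11 KO tumours above every control tumour. It rose by 1.69 ± 0.40 (SE) on the log2 scale, with an edgeR adjusted p of 0.00446. H2-Ab1, the I-A beta chain, ran over 84.9, 535.4 and 1923 CPM in control and 288.6, 1786 and 4699 CPM in KO tumours (log2 fold change 1.72, SE 0.41, edgeR adjusted p = 0.00471).

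H2-Eb1 ran over 122.8, 482.2 and 1720 CPM in control and 248.6, 1973 and 4995 CPM in KO tumours, with 7 KO tumours above every control (log2 fold change 1.80, SE 0.39, edgeR adjusted p = 0.00212). Cd74, the invariant chain and Mif receptor, ran from 770.7 over 2029 to 6688 CPM in control and from 1043 over 6711 to 16280 CPM in KO tumours (1.49, SE 0.37, edgeR adjusted p = 0.00636). The peptide-loading chain H2-DMa rose with them (1.07, SE 0.25, edgeR adjusted p = 0.00371), as did its partner H2-DMb1 (1.01, edgeR adjusted p = 0.0038), which fell outside the naming rule and was chosen after its values were seen. In all, 6 of 7 class II genes tested were higher and none lower, with a median log2 fold change of 1.49 against 0.02 over all genes. Ctss did not pass (0.21, edgeR adjusted p = 0.452).

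The rise was uneven between the KO lines. For lines 15, 18, 19 and 24 in that order, mean H2-Aa was 932.5, 694.3, 1536 and 4304 CPM and mean Cd74 was 2924, 2242, 4270 and 12380 CPM. Both KO lines stood above both control lines, with line 24 far above line 19. Without line 24 the list median was 0.64 and 0 of 7 passed. In the mixed libraries alone the median was 1.09 and 0 of 7 passed, and with library as a term it was 0.62 with 0 of 7. In those fits the log2 difference of H2-Aa was 0.87 without line 24 (edgeR adjusted p = 0.248) and 1.25 in the mixed libraries (edgeR adjusted p = 0.167). Without the single-line library of line 24, 3 of 7 passed with a median of 1.0. Within blocks of library and day 0 of 7 passed, with a median of 0.48 and H2-Aa at 0.60 (edgeR adjusted p = 0.376).

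By day, mean H2-Aa in control tumours was 867.9, 909.4 and 720.8 CPM at days 6, 10 and 16. The single KO tumour at day 6 stood at 306.4 CPM, and KO means were 3012 CPM at day 10 and 3091 CPM at day 16. Low class II in the day 6 KO tumour, from line 19, set it apart from the later KO tumours, whose lowest value was 608.5 CPM. In the C1q+ cells as a whole, gated or not, mean H2-Aa was 842.0, 1194 and 1139 CPM in control and 1612, 3048 and 3318 CPM in KO tumours at those days. That set includes the gated cells, and levels outside the gate alone are not given. The WT tumour at day 16 stood at 3699 CPM of H2-Aa in gated cells, above all 16 control tumours. Dendritic-cell markers, 8 genes summed, ran from 16.9 to 76.0 CPM in control and from 18.7 to 221 CPM in KO tumours, with Xcr1 at 0 in control tumours. Their line means were 35.6, 48.8, 49.0 and 105.3 CPM in lines 15, 18, 19 and 24, so line 24, with the highest class II levels, also had the highest dendritic sum. The 6 B-cell markers averaged 30.8, 28.8, 29.3 and 50.5 CPM in those lines. The part of either in the class II difference was not tested.

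**Figure D3:**
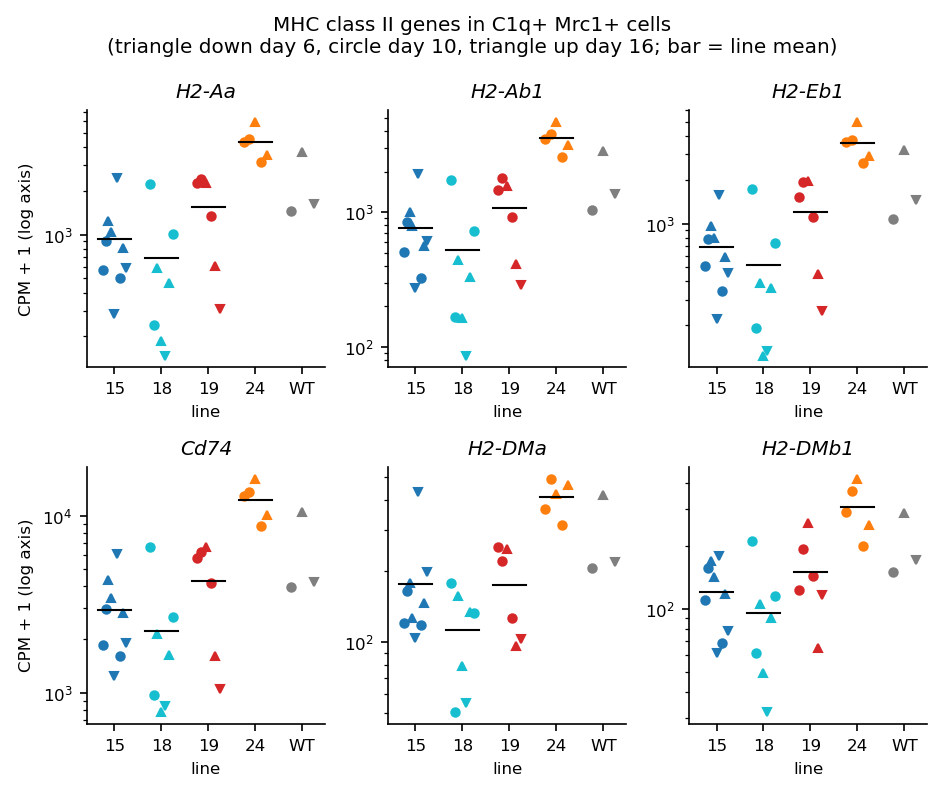
CPM + 1 (log axis) of 6 MHC class II genes in C1q macrophages with Mrc1, by line (15 and 18 control, 19 and 24 Mif KO, WT without a group). Each point is 1 tumour, symbols are days and bars are line means; line 24 is highest for every gene shown, with mean H2-Aa at 4304 CPM against 694.3 to 1536 CPM in the other 3 lines.

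Other antigen presentation and interferon genes moved less. None of 11 MHC class I presentation genes passed (median 0.19). Of 15 interferon response genes 3 were higher and none lower, with a list median of 0.11: the GTPase Iigp1 (1.5, edgeR adjusted p = 0.00174), the guanylate-binding protein Gbp2 (0.85, edgeR adjusted p = 0.026) and the T-cell chemokine Cxcl9 (1.18, edgeR adjusted p = 0.0298). In the mixed libraries none of the 3 passed, nor within blocks of library and day, where the medians of the class I and interferon lists turned to -0.25 and -0.28. The 12 T-cell markers, with the Cd3 genes at 0 by the gate, had a summed level of 0 to 33.8 CPM in control and 0 to 114 CPM in KO tumours, and their part in these differences was not tested.

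Nr4a3, an immediate-early nuclear receptor, ran over 5.68, 16.6 and 30.9 CPM in control tumours and 17.8, 41.8 and 139 CPM in KO tumours, with 9 of 11 KO tumours above every control. It rose by 2.14 ± 0.31 (SE) on the log2 scale (edgeR adjusted p = 2.94e-05), with 1.72 in the mixed libraries (edgeR adjusted p = 0.0483) and 0.97 without line 24 (edgeR adjusted p = 0.0351). The insulin receptor substrate Irs2 rose by 1.35 (edgeR adjusted p = 0.000195), the receptor tyrosine kinase Axl by 0.69 (edgeR adjusted p = 0.000864) and the lectin Mgl2 by 1.35 (edgeR adjusted p = 0.0146). Serpinf1, a secreted serpin, rose by 1.84 (edgeR adjusted p = 5.72e-05), and the chemokine Ccl5 by 1.56 (edgeR adjusted p = 0.0109), though Ccl5 stood at 0.09 without line 24 (edgeR adjusted p = 0.96). AW112010 rose by 1.44, transferrin, Trf, by 1.12 and the growth factor Areg by 0.87. Of these 9 genes, Nr4a3 and Irs2 passed in the mixed libraries, Nr4a3 and Areg within blocks of library and day, and Nr4a3 and Serpinf1 passed without line 24.

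Ogn, which encodes an extracellular matrix proteoglycan and marks the line compartment, had the largest called rise named here (2.95, edgeR adjusted p = 0.000919). Its mean was 254.7 CPM in line 24 against 8.64 to 25.6 CPM in the other lines, and in the mixed libraries its log2 fold change was -0.16. Beside it, S100a16 of the same compartment (1.94) and the fibroblast collagen Col1a2 (0.96) were also higher. The line-compartment marker sum averaged 283.5 CPM in gated cells of line 24 against 65.6, 106.7 and 118.4 CPM in lines 15, 18 and 19. Whether RNA from those cells contributed to these differences was not tested.

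For several lower genes the means of both KO lines lay close together. Cathepsin B, Ctsb, a lysosomal protease, ran over 2023, 2896 and 3899 CPM in control and 1432, 1757 and 1936 CPM in KO tumours. All 11 KO tumours lay below the lowest control tumour, and the means of lines 19 and 24 were 1709 and 1688 CPM against 3143 and 2571 CPM in lines 15 and 18. The KO minus control difference was -0.75 ± 0.09 (SE) on the log2 scale (edgeR adjusted p = 2.05e-06), -0.75 in the mixed libraries (edgeR adjusted p = 0.00853) and -0.72 without line 24 (edgeR adjusted p = 0.000468).

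Cd68, a lysosomal membrane glycoprotein, ran over 393.8, 892.2 and 1301 CPM in control and 272.4, 377.9 and 564.6 CPM in KO tumours, with 7 KO tumours below every control. It fell by 1.12 on the log2 scale (SE 0.14, edgeR adjusted p = 3.17e-06) and by 1.21 in the mixed libraries (edgeR adjusted p = 0.00425). Ctsb and Cd68 each passed in 21 of 23 alternative fits, among them the blocks of library and day (-0.77, edgeR adjusted p = 0.00941, and -1.25, edgeR adjusted p = 0.00814). Of 12 macrophage core genes, 3 were lower (Cd68, Fcgr1 and Itgam) and none higher, with a median of -0.11.

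Of 11 resident-type genes tested, 5 were lower in the KO tumours and none higher (median -0.60). Folr2 ran over 78.5, 130.8 and 253.0 CPM in control and 3.39, 46.0 and 106.6 CPM in KO tumours, with 9 of 11 KO tumours below every control (log2 fold change -1.44, SE 0.23, edgeR adjusted p = 8.26e-05). It was -1.31 in the mixed libraries (edgeR adjusted p = 0.0685). Fcna, which encodes the lectin ficolin A, fell by 1.86 (edgeR adjusted p = 3.27e-05), Gas6 by 0.96 (edgeR adjusted p = 0.0162), Pf4 by 0.67 (edgeR adjusted p = 0.0134) and Stab1 by 0.60 (edgeR adjusted p = 0.0331). Of these 5, Fcna and Folr2 passed without line 24, and Fcna and Pf4 passed in the mixed libraries, while Fcna was the single one of the 5 to pass within blocks of library and day. Mrc1 itself, a gate gene, had lowest, median and highest levels of 499.7, 806.6 and 1236 CPM in control and 464.4, 632.2 and 793.2 CPM in KO tumours.

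Of 12 Fc and immune-inhibitory receptors, 6 were lower and none higher (median -0.46). The inhibitory receptor Lilrb4a ran over 262.5, 447.1 and 617.7 CPM in control and 154.4, 251.9 and 380.0 CPM in KO tumours (log2 fold change -0.87, SE 0.12, edgeR adjusted p = 1.51e-05), and 6 KO tumours were below every control. The activating Fc receptors Fcgr3 (-0.67) and Fcgr1 (-0.65) and the CD47 receptor Sirpa (-0.58) were lower too. In the mixed libraries Lilrb4a stood at -1.12 (edgeR adjusted p = 0.00546), the single member of the list to pass there, and 4 of the 12 were lower within blocks of library and day. Without line 15, 1 of the 12 receptors passed.

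Among the largest falls, Pdpn, podoplanin, ran over 51.3, 87.7 and 151.5 CPM in control and 6.0, 21.9 and 72.7 CPM in KO tumours (log2 fold change -1.89, SE 0.24, edgeR adjusted p = 5.99e-06). The tetraspanin Cd37 ran over 42.1, 63.9 and 92.7 CPM in control and 3.39, 18.0 and 45.5 CPM in KO tumours (-1.52, SE 0.20, edgeR adjusted p = 6.27e-06). For both genes 10 of 11 KO tumours lay below every control tumour. The dipeptidase Dpep2 (-1.55, edgeR adjusted p = 4.6e-05) and the lectin Clec4d (-1.37, edgeR adjusted p = 8.89e-05) also fell, as did Pmp22 (-1.55), Pira2 (-1.38), Arl11 (-1.21) and Slc37a2 (-1.21). Pdpn, Cd37, Dpep2, Clec4d, Pmp22 and Slc37a2 passed in the mixed libraries and without line 24, and all of them but Pdpn (-1.39, edgeR adjusted p = 0.0598) within blocks of library and day. Pira2 belongs to a family of near-identical receptors, and its counts are uncertain for that reason.

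Of 12 growth and tissue factors tested, Areg was higher and Mmp9, Plau and Timp2 were lower (median -0.03). The proteases Mmp12 (-0.43), Mmp13 (0.43) and Mmp14 (-0.35) of the same list did not pass. Plau, urokinase, ran over 65.4, 177.7 and 205.0 CPM in control and 37.6, 67.8 and 113.7 CPM in KO tumours (log2 fold change -1.11, edgeR adjusted p = 5.23e-05). Mmp9, a gelatinase, had a median of 28.5 CPM in control and 2.09 CPM in KO tumours and was at 0 in 2 control and 5 KO tumours (-4.67, SE 0.85, edgeR adjusted p = 0.000351). Ctsk fell by 2.60 (edgeR adjusted p = 0.00203). Mmp9 and Ctsk also belong to the osteoclast-like marker list, whose summed level in the gated cells ran from 92.0 to 466 CPM in control and from 76.8 to 334 CPM in KO tumours.

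Of the lipid-associated list, 4 of 12 were lower, among them the fatty-acid binding protein Fabp5 (-1.14, edgeR adjusted p = 0.000874), Lgals3 (-0.69) and the lipid receptor Trem2 (-0.51), and Ctsb was the single member to pass in the mixed libraries. Of 9 chemokines tested Ccl2 (-0.66), Ccl9 (-0.84) and Pf4 fell and Ccl5 rose, and in the mixed libraries 2 were lower and none higher. No gene of the inflammatory (9 tested), hypoxia and glycolysis (12) or cell cycle (10) lists passed. Alternative activation gave 1 higher, Mgl2, and 1 lower, Msr1 (-0.37), of 7 tested, and none passed in the mixed libraries. Mif in the gated cells differed by -0.48 ± 0.13 (SE) on the log2 scale (edgeR adjusted p = 0.0144), which turned to 0.19 in the mixed libraries (edgeR adjusted p = 0.507).

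From day 6 to day 16 the monocyte genes Ly6c2 and Plac8 and the interferon-stimulated genes Ifi27l2a, Isg15 and Zbp1 fell in the gated cells, and lysozyme, Lyz2, rose. The comparison took days within lines, with 5 tumours at day 6, 12 at day 10 and 10 at day 16. Day 6 had 4 control tumours and 1 KO tumour, of line 19, and day 16 had 6 control and 4 KO tumours. Line 24 had no day 6 tumour with at least 20 gated cells, so it gave no day 6 contrast of its own. Ranges and counts of tumours by day below therefore mix lines and groups in unlike proportions. Of the 6551 genes in the fit, 0.824% had an edgeR adjusted p under 0.05 between days 6 and 16 (0.397% higher and 0.427% lower at day 16), and 0.0458%, or 3 genes, between days 6 and 10. The day 6 side rests on few cells, and without line 15, which supplied 3 of its 5 tumours, 0 genes passed in edgeR (456 at an unadjusted p under 0.05).

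Ly6c2, the Ly6C antigen of inflammatory monocytes, stood at 23.2, 75.5, 98.2, 132.9 and 1491 CPM in the 5 tumours of day 6, and at day 16 its lowest, median and highest values were 0, 12.6 and 69.3 CPM. The tumour at 1491 CPM, line 15 letter B, held 22 gated cells, and 8 of 10 day 16 tumours lay below every day 6 tumour. From day 6 to 16 it differed by -4.11 ± 0.73 (SE) on the log2 scale (edgeR adjusted p = 0.00513). Plac8, also high in monocytes, stood at 54.1, 84.4, 91.2, 154.4 and 588.6 CPM at day 6 and over 1.71, 22.2 and 110.9 CPM at day 16 (-2.96, SE 0.51, edgeR adjusted p = 0.00513). Of 6 monocyte genes tested, these 2 passed and none rose (median -1.11 against 0.01 over all genes). Without that tumour of line 15, Ly6c2 did not pass (-2.88, edgeR adjusted p = 0.066) and Plac8 did (-2.46, edgeR adjusted p = 0.0305). Ly6c2 has near-identical neighbours in the Ly6 family, so its counts are uncertain.

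Ifi27l2a, an interferon-stimulated gene, stood at 725.8, 1347, 1412, 2543 and 4199 CPM at day 6 and over 290.6, 817.3 and 1414 CPM at day 16 (-1.38, SE 0.24, edgeR adjusted p = 0.00513). It also passed between days 6 and 10 (-1.21, edgeR adjusted p = 0.0428), as did Plac8 (-2.61, edgeR adjusted p = 0.0428), and the third gene was Lcp1, an actin-bundling protein named after its values were seen (0.65, edgeR adjusted p = 0.0428). The ubiquitin-like Isg15 fell by 1.33 (edgeR adjusted p = 0.0205) and the nucleic acid sensor Zbp1 by 1.42 (edgeR adjusted p = 0.0194). Isg15 was the single member of 15 interferon response genes to pass, while 14 of the 15 had negative values (list median -0.75). Without the day 6 tumour of line 15 letter B, Ifi27l2a passed (-1.13, edgeR adjusted p = 0.0272), and Isg15 (-0.99, edgeR adjusted p = 0.127) and Zbp1 (-1.26, edgeR adjusted p = 0.0672) did not.

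Lysozyme, Lyz2, stood at 1110, 1214, 2038, 2472 and 3088 CPM at day 6 and over 1308, 3950 and 5946 CPM at day 16, with 7 of 10 day 16 tumours above every day 6 tumour (1.07, SE 0.20, edgeR adjusted p = 0.0065). The sialic acid receptor Cd33 rose by 1.64 (edgeR adjusted p = 0.0194), the lectin Clec4n by 1.25 (edgeR adjusted p = 0.0422), Trf by 1.26 (edgeR adjusted p = 0.0375) and Cd68 by 0.68 (edgeR adjusted p = 0.0289). Zfp36, which destabilises cytokine mRNAs, rose by 0.98 (edgeR adjusted p = 0.00513) and the immediate-early gene Fos by 1.0 (edgeR adjusted p = 0.0181). Ccnb2, cyclin B2, was the single one of 10 cell cycle genes to pass (1.2, edgeR adjusted p = 0.0392). Without the day 6 tumour of line 15 letter B, Ccnb2 (1.09, edgeR adjusted p = 0.0896), Cd68 (0.64, edgeR adjusted p = 0.0896) and Clec4n (1.36, edgeR adjusted p = 0.0606) did not pass, and Lyz2, Cd33, Trf, Zfp36 and Fos did. None of 7 class II genes and none of 11 resident-type genes passed between days 6 and 16. C1qa, a gate gene, averaged 2307, 2633 and 3308 CPM at days 6, 10 and 16 in control tumours. In KO tumours C1qa stood at 1279 CPM in the single day 6 tumour and averaged 2567 and 2230 CPM at days 10 and 16.

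**Figure D4:**
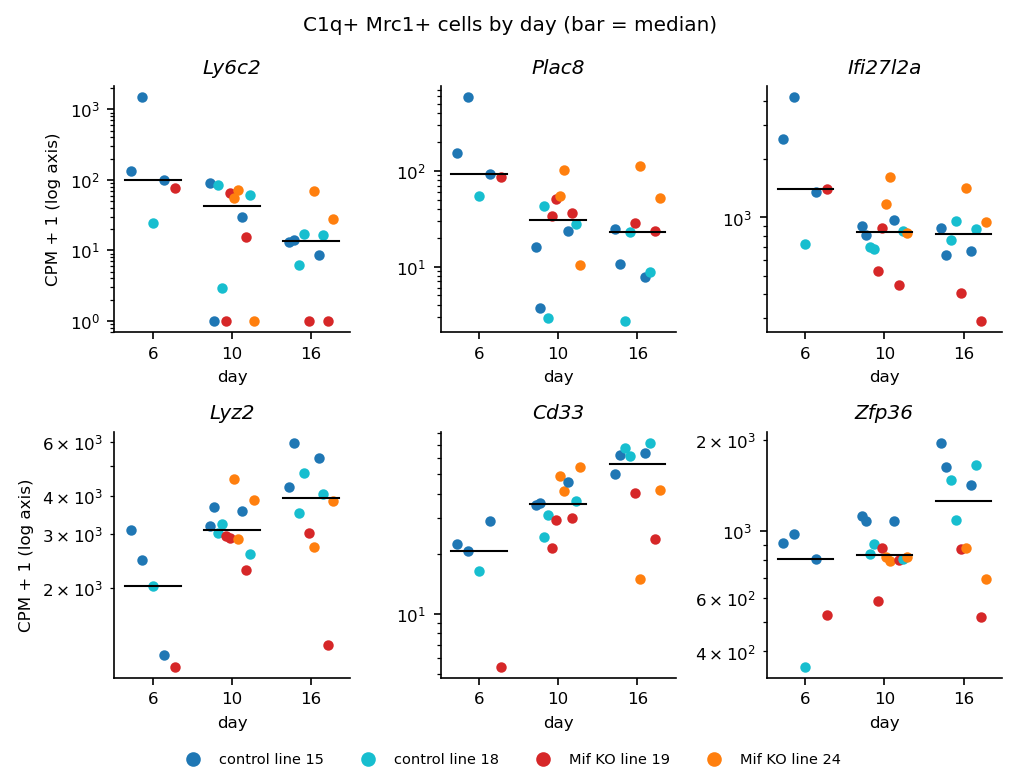
CPM + 1 (log axis) of 6 genes in C1q macrophages with Mrc1 at days 6, 10 and 16. Each point is 1 control or KO tumour, colours are lines and bars are medians; Ly6c2 is highest in 1 tumour of day 6, at 1491 CPM, and has a median of 12.6 CPM at day 16, while Lyz2 has a day 16 median of 3950 CPM.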

How the data were processed

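Tumour cells were profiled with the 10x Chromium 5′ v2 kit and hashtag antibodies, per the labels' protocols. Each of 6 deposited matrices holds raw UMI counts for 32285 gene rows. The file headers and the submitters' processing notes both name Cell Ranger 6.0.0, and the notes name mm10. A deposited sheet pairs each hashtag with a line, day and letter, and 45 of its 47 entries had cells. Line numbers were looked up among the labelled libraries to give the group.

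The gate was applied to raw UMIs. Cells with hashtags of 2 tumours were left out by the hashtag ratio, no doublet caller was run, and doublets within a tumour remain. Counts were summed per tumour (at least 20 gated cells) and fitted in edgeR 4.0.16 (filterByExpr, TMM, glmQLFit, glmQLFTest, R 4.3.3), with day (KO against control), line (days) or tumour (within tumours) as covariates, and Benjamini-Hochberg adjustment over all genes tested. Levels are TMM-scaled CPM computed from the deposited counts, except pooled levels, which are unscaled. No pseudocount was added to the counts before the fits, and figures add 1. The edgeR fold changes carry the default prior count of its fit. Each SE of an edgeR fold change is that fold change, without its sign, divided by the square root of the quasi-likelihood F. Shares were tested by permutation (SciPy 1.17.1), 100000 resamples within day or exact.

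In simulated counts with 200 genes changed by 1 on the log2 scale, the fits recovered 97.5% (KO against control, 5981 genes), 100% (within tumours, 9600 genes), 68.5% (day 16 against 6, 6238 genes) and 73.5% (day 10 against 6, 6237 genes) of them. Of the genes called, 5.34%, 4.76%, 4.86% and 3.92% in that order were unchanged ones. The changed genes were drawn from the better expressed ones. Simulated tumours had no line or library effect, so these shares do not give the recovery in the real tumours.

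Named genes are gate genes, Mif, up to 5 members of each list, and the 12 largest called changes each way with mean logCPM of at least 5 (for KO against control, only genes whose 2 KO line means both lay above, or both below, the 2 control line means). The cells, lists and tests were chosen with earlier results of these data known. Alternatives included DESeq2 1.42.0, other filters and gates, thinned cells, single libraries, blocks of mixed library and day, and leaving out each line. Thinning left out cells below the chosen depth. Intervals and limits cover counting error only. Promoters came from RefSeq on GRCm38.p6. No genome coordinates were read from the deposited files.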

Additional observations from a re-analysis of the deposited data

Results flagged for a closer look

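Among 60 groups of 4 to 10 tumours checked for a value far from its neighbours, where chance gives about 1 in 20, 7 had one. At day 10, 1 KO tumour, of line 19 in a mixed library, held 4.82% of its assigned cells in the gate, apart from the other 5 KO tumours of that day. At day 6, the control tumour of line 15 letter B stood at 1491 CPM of Ly6c2 (76 UMIs) against 23.2 to 132.9 CPM in the other 4 tumours, and at 588.6 CPM of Plac8 (30 UMIs) against 54.1 to 154.4 CPM. At day 16, 1 KO tumour, line 24 letter B, stood apart for 4 genes: Ly6c2 at 69.3 CPM, against at most 27.1 CPM in the other 9 tumours, Plac8 at 110.9 CPM against 50.8, Maff at 92.4 CPM against 36.4, and Tnfrsf1b at 143.2 CPM against 71.2.

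The change in the share of C1q+ cells passing the Mrc1 threshold from day 6 to 16 differed between the groups by -19.6 percentage points, KO minus control (exact permutation p = 0.0297). It is 1 of 3 such differences, with p-values not adjusted over them. Tumours were permuted and not lines, of which each group has 2. The others were 1.86 points from day 6 to 10 (exact p = 0.807) and -21.5 points from day 10 to 16 (exact p = 0.0528). With cells thinned to 3000 UMIs the day 6 to 16 difference was -19.5 points (exact p = 0.00253), and with 1500 UMIs -6.55 points (exact p = 0.16).

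The 3 WT tumours, which the labels place in no group, stood above all 16 control tumours for several genes that were higher in KO tumours. At day 6 the WT tumour had 572.0 CPM of Ccl5 (highest control 215.0), 174.3 of Iigp1 (107.5), 81.7 of Serpinf1 (42.0) and 59.9 of Irs2 (58.9). At day 10 it had 250.2 CPM of Ccl5, 136.9 of Iigp1 and 33.4 of Nr4a3 (30.9). At day 16 it had 3699 CPM of H2-Aa (2452), 2856 of H2-Ab1 (1923), 3211 of H2-Eb1 (1720), 10510 of Cd74 (6688), 692.6 of AW112010 (687.0), 291.4 of Ccl5, 65.5 of Nr4a3 and 47.5 of Serpinf1. These are single tumours and no test was made. Mif in the cells that were not C1q+ ran from 2121 to 2501 CPM in the WT tumours, beside means of 2177 CPM in control and 407 CPM in KO samples.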

How the results depend on the processing

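Each group rests on 2 lines. The count of genes differing between KO and control tumours, 817, became 306 at day 16 only, 280 and 57 with cells thinned to 3000 and 1500 UMIs before the gate (leaving 11 control and 6 KO, and 12 and 3, of the 16 and 11 tumours, so depth and tumour number cannot be told apart), 270 with library as a term, 132 in the mixed libraries (104 of them among the 817 with the same direction), 506 without the single-line library of line 24, and 304 to 1144 on leaving out each line. It was 0 with 1 sum per line (1389 at an unadjusted p under 0.05) and 0 with a stricter gate of 6 C1q and 4 Mrc1 UMIs, which left 11 control and 2 KO tumours (463 at an unadjusted p under 0.05). DESeq2 gave 905, with the median of all genes moved to 0.19, and its median shift was -0.18 between days 6 and 16 and 0.14 within tumours.

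Within tumours 2188 genes became 4141 on thinning to 3000 UMIs before the gate and 1213, 1356, 1898 and 2308 without lines 15, 18, 24 and 19. Between days 6 and 16 the count of 54 became 121 (DESeq2), 127 and 1 (at least 10 and 50 cells), 101 (control lines only), 2 (thinned to 1500 UMIs), 35 (line and library as terms), 264 (no low-count filter, where the median of all genes moved to 0.22), 29 (single-line libraries), 141 (without the deepest 10% of cells), 19 (without the day 6 tumour of line 15 letter B), and 0 and 13 without lines 15 and 18. Between days 6 and 10 the count of 3 became 22 (DESeq2), 1 (RLE size factors), 5 and 1 (at least 10 and 50 cells), 0 (control lines only), 1 (thinned to 1500 UMIs), 113 (no low-count filter), 1 (single-line libraries), 23 (without the deepest cells), 0 (without the tumour of line 15 letter B), and 0 to 7 on leaving out each line. The stricter gate and thinning to 3000 UMIs left no day 6 tumour and gave no day comparison. At least 50 cells and thinning to 1500 UMIs left 1 day 6 tumour, assumed to vary like the others, so those counts say nothing of stability.

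The KO difference in the share of C1q+ cells lost its call with 1 mean per line (-8.96 points), in single-line libraries (-7.63), in mixed libraries (-10.6), after thinning to 3000 UMIs (-4.10), and ranged from -15.3 to -2.67 on leaving out each line, and that of assigned cells lost it with 1 mean per line (-3.37). Under the stricter gate the sign turned for Areg (-0.27), Ccl5 (-0.35), Gbp2 (-0.25), Msr1 (0.074), Stab1 (0.15), Trem2 (0.088) and Ogn (-0.19), and Ogn also turned in the mixed libraries (-0.16). Mif turned after thinning to 3000 UMIs (0.043), with library as a term (0.10) and in the mixed libraries (0.19). Kdm6b (0.17) and Tnfrsf1b (0.14) turned between days 6 and 16 without line 15. The causes were not tested. For 55 named genes of the KO comparison, 844 of the alternative values kept direction and call, 392 lost the call and 12 turned.

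The labels give the groups no shared replicate numbers, but some tumours of both groups share a mixed library and day. With that pairing as a block, added after seeing the data, 171 genes passed (114 of them among the 817 with the same direction), Mif turned (0.099), and the KO difference in the share of C1q+ cells (-6.36 points, exact p = 0.312) and of assigned cells (-3.33, exact p = 0.0625) lost its call.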
